A study of Drosophila melanogaster with 2 samples.

Results

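The genes described here are 10 regulators of the cell cycle: CycA, CycB, CycB3, cdc2, stg, CycE, CycD, E2f, dap and fzr. They were chosen by name as the core cyclins, their activators and the genes that act when cells stop dividing, and are 10 of the 13623 genes in the expression table. A total of 9 had a row under their own symbol, and fzr was found as rap, an older symbol of the same gene. The study sequenced nuclear RNA of Drosophila melanogaster embryos in 2 libraries, labelled as neural stem cells (NSCs) and as neurons. Below, NSCs and neurons mean these 2 libraries, which also held transcripts of markers of other cell types. The NSC library came from embryos of the driver Sca-Gal4/cyo, labelled as 5 to 7 h old, and the neuron library from embryos of the driver Elav-Gal4, labelled as 12 to 14 h old. Both strains carried the tag UAS-3xFLAG-blrp-mCherry-RanGap: GAL4 made under the named driver switched on a FLAG-tagged nuclear envelope protein, and tagged nuclei were captured on anti-FLAG beads. Cell type, embryo age and driver line therefore differed together and cannot be told apart. Each group had 1 library and hence no replicate, so no p-value was computed and each difference is one between these 2 libraries.

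Cells enter DNA synthesis and mitosis when cyclins bind and activate cyclin-dependent kinases (CDKs). In Drosophila, cyclin E with Cdk2 drives entry into S phase and cyclins A, B and B3 act in mitosis, with cyclins A and B working through the kinase Cdk1, which is encoded by cdc2. String, the Cdc25 phosphatase, removes the inhibitory phosphates from Cdk1 and times the divisions of the embryo. Dacapo, a CDK inhibitor of the p21/p27 family, and Fizzy-related, which directs mitotic cyclins to the anaphase-promoting complex for destruction, are both needed for epidermal cells of the embryo to stop dividing on time. Embryonic neuroblasts divide repeatedly, whereas neurons are postmitotic.

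Expression was given as FPKM (fragments per kilobase per 1000000 fragments mapped), a level per length of transcript. Nuclear RNA also holds unspliced transcripts, so genes of unlike span may not be fully comparable within a library. The change was log2((neuron FPKM + 1)/(NSC FPKM + 1)), and a size of 1 or more was called 2-fold. Of the 10 genes, 6 were at least 2-fold lower in the neuron library, 0 were at least 2-fold higher and 4 stayed within 2-fold. Among the 10158 genes that reached 1 FPKM in either library, 16.6% were 2-fold lower and 26.9% were 2-fold higher. When both libraries were scaled to the same FPKM sum (TPM scaling), these shares were 11.8% and 33.8%, and 6 of the 10 genes were again 2-fold lower. The median log2 change was -1.61 for the 10 genes and 0.14 for all genes compared. The 10 genes were all well expressed in NSCs, and among the 2200 genes with at least 50 FPKM there, 34.5% were 2-fold lower, 4.95% were 2-fold higher and the median was -0.65.

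**Figure D1:**
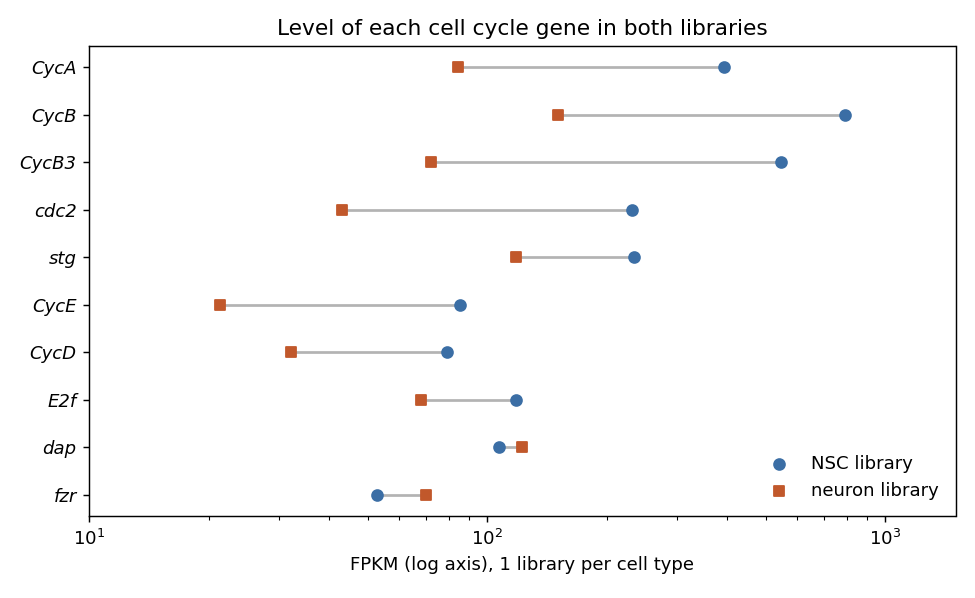
FPKM of the 10 cell cycle genes (log axis) in the NSC library (circles) and the neuron library (squares), 1 library per cell type, with a line joining the values of a gene. CycA, CycB, CycB3 and cdc2 are set far apart (CycB at 793 and 150.2 FPKM), stg and E2f lie closer, and only dap and fzr have the neuron value to the right.

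The mitotic cyclins were the most abundant of these transcripts in NSCs and had some of the largest differences. CycB (FBgn0000405, arm 2R) had 793 FPKM in NSCs against 150.2 in neurons, a log2 change of -2.39. CycB3 (FBgn0015625, arm 3R), the last of these cyclins to be degraded in mitosis, had 547 FPKM in NSCs against 72.1 in neurons, the lowest log2 change of the 10 genes at -2.91. CycA (FBgn0000404, arm 3L), which acts in G2 and early mitosis, had 394 FPKM in NSCs against 84.1 in neurons, a log2 change of -2.21. Together the 3 mitotic cyclins summed to 1734 FPKM in NSCs against 306 in neurons. The order in NSCs was CycB, CycB3, CycA, whereas in neurons CycA stood above CycB3.

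The kinase gene cdc2 (Cdk1 in current nomenclature, FBgn0004106, arm 2L) had 231 FPKM in NSCs against 43.2 in neurons. Its log2 change of -2.39 was the same as that of its partner CycB to 2 decimals, so the cdc2 to CycB ratio was 0.291 in NSCs and 0.288 in neurons. Of all genes compared, CycB3 ranked at percentile 0.581 by log2 change, CycB at 1.74, cdc2 at 1.78 and CycA at 2.36, counted from the lowest. The mitotic cyclins and their kinase thus lay among the lower few percent of genes.

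String did not follow the kinase it activates. The stg gene (FBgn0003525, arm 3R) had 233 FPKM in NSCs, nearly equal to cdc2, and 118 FPKM in neurons. Its log2 change of -0.98 was just short of 2-fold (a plain FPKM ratio of 1.98), and it ranked at percentile 17.2 of all genes compared. The ratio of stg to cdc2 was 1.01 in NSCs and 2.73 in neurons, and stg had the third highest level of the 10 genes in neurons, after CycB and dap. The second Cdc25 gene, twe, which is known for its role in meiosis and the early embryo, had 55.1 FPKM in NSCs against 17.9 in neurons (log2 change -1.57).

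The G1 cyclins were less abundant than the mitotic cyclins in both libraries. CycE (FBgn0010382, arm 2L) had 85.2 FPKM in NSCs against 21.3 in neurons, a log2 change of -1.95, and it had the lowest neuron level of the 10 genes. CycD (FBgn0010315, arm X), the partner of Cdk4 in growth and G1 progression, had 79.2 FPKM in NSCs against 32.1 in neurons, a log2 change of -1.28. The G1 cyclins were thus nearly level in NSCs, and CycE was the lower in neurons. E2f (E2f1 in current nomenclature, FBgn0011766, arm 3R), the transcription factor that activates S phase genes, had 118 FPKM in NSCs against 68.2 in neurons. Its log2 change of -0.78 did not reach 2-fold and ranked at percentile 22.3.

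Of the 10 genes, dap and fzr were those with a higher value in neurons, and neither reached 2-fold. The CDK inhibitor gene dap (FBgn0010316, arm 2R) had 107 FPKM in NSCs against 122 in neurons, a log2 change of 0.19. The gene fzr (rap in the table, FBgn0262699, arm X) had 52.96 FPKM in NSCs against 70.0 in neurons, a log2 change of 0.40. These changes ranked at percentiles 51.5 and 57.3 of all genes compared, near the middle of the table. Both genes had at least 50 FPKM in NSCs. Among the 2200 genes at that level the median log2 change was -0.65 and 4.95% were 2-fold higher, so both lay above the median of genes of like level. Both were already expressed in the NSC library, where dap stood at percentile 93.2 and fzr at percentile 84.7 of all genes by level. The fzr paralogue fzr2 was low in both libraries, with 1.24 and 3.22 FPKM.

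**Figure D2:**
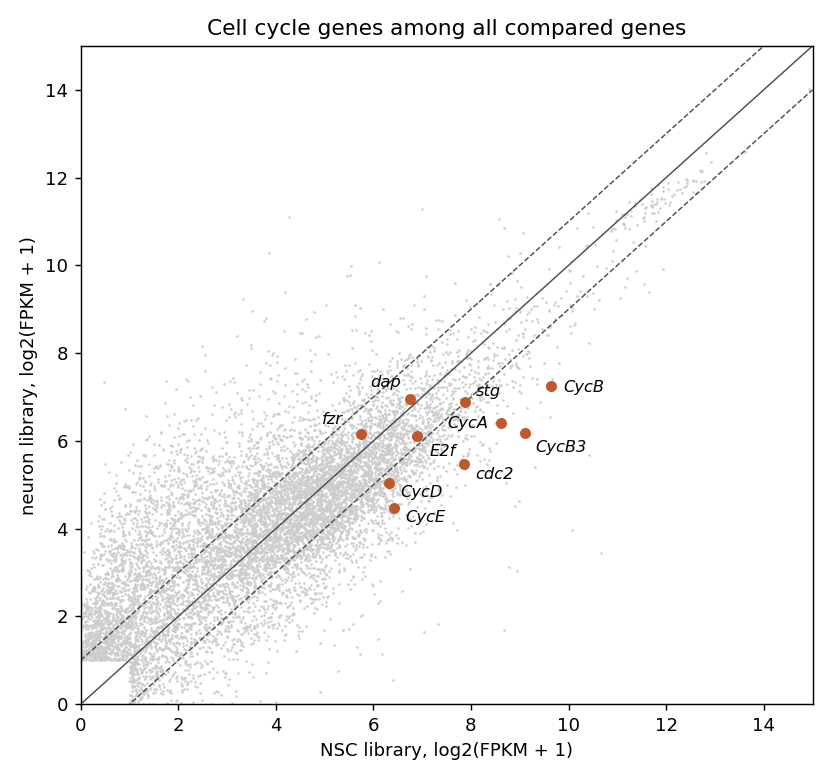
log2(FPKM + 1) in the NSC library (horizontal) and in the neuron library (vertical) for the 10158 genes compared (grey) and the 10 cell cycle genes (labelled). The solid line marks equal values and the dashed lines 2-fold differences. CycA, CycB, CycB3, cdc2, CycE and CycD lie below the lower dashed line, stg lies at it, and dap and fzr lie just above the solid line.

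None of the 10 genes was near absence in the neuron library. Each was above the library median, which was 5.28 FPKM in NSCs against 8.76 in neurons, and the lowest, CycE, stood at percentile 67.9 of all genes in the neuron library. CycB was still at percentile 96.0 there and had 1.95 times the FPKM of elav, the neuronal gene whose driver marked these nuclei (77.0 FPKM). In the NSC library CycB had 17.1 times the FPKM of elav. The spread among the 10 genes narrowed, from 14.97-fold between the highest and the lowest in NSCs to 7.04-fold in neurons. In neurons, CycA, CycB3, fzr and E2f had similar levels, from 68.2 to 84.1 FPKM.

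To compare partners without any scaling between libraries, 20 ratios were formed within each library, from pairs chosen after the values had been seen. The largest shift among those with one of the 10 genes on top was between the activators of the anaphase-promoting complex. Fizzy (fzy), which acts in mitosis, had 234 FPKM in NSCs against 31.1 in neurons (log2 change -2.87), a difference between those of CycB3 and CycB. The ratio of fzr to fzy was 0.226 in NSCs and 2.25 in neurons, a 9.96-fold shift, so the more abundant activator transcript was fzy in NSCs and fzr in neurons. The ratio of the inhibitor gene dap to CycE was 1.26 in NSCs and 5.73 in neurons, a 4.55-fold shift. Against the Cdk2 gene (cdc2c in the table) the dap ratio was 1.02 in NSCs and 4.44 in neurons.

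Some other partners kept nearly constant ratios. CycE to cdc2c was 0.809 in NSCs and 0.775 in neurons, and E2f to Rbf, the retinoblastoma gene that restrains E2F, was 2.64 and 2.57. The ratio of stg to wee, the kinase gene that opposes string, was 7.38 in NSCs and 7.77 in neurons. In contrast, stg to trbl, whose product promotes the degradation of String, was 2.79 in NSCs and 6.38 in neurons. The stg to twe ratio was 4.23 in NSCs and 6.58 in neurons, and E2f to Dp was 0.619 and 0.860. CycD to Cdk4 was 2.19 in NSCs and 1.04 in neurons, with Cdk4 itself at 36.2 and 30.9 FPKM.

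**Figure D3:**
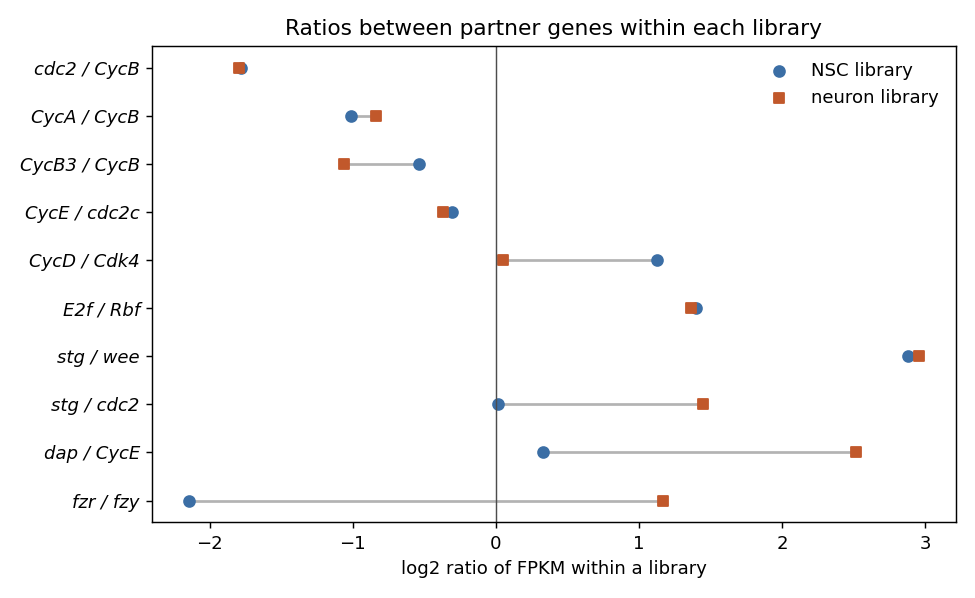
log2 ratio of FPKM between pairs of partner genes, each formed within the NSC library (circles) or the neuron library (squares); 0 on the horizontal axis marks equal FPKM. The pairs cdc2/CycB, CycE/cdc2c, E2f/Rbf and stg/wee nearly coincide, whereas fzr/fzy crosses 0, from -2.14 to 1.17, and dap/CycE moves from 0.33 to 2.52.

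The wider cyclin and CDK families were examined next, in 17 further genes, of which 4 were at least 2-fold lower in neurons and 0 higher (median log2 change -0.79). This share of 23.5% was near the 16.6% of all genes compared. Among genes with at least 50 FPKM in NSCs the share was 34.5%, but the median of this list there was 39.1 FPKM. The largest difference was that of the Cdk2 gene cdc2c, with 105 FPKM in NSCs and 27.5 in neurons (-1.90). CycH, a cyclin of the CDK-activating and transcription complexes, had a log2 change of -1.49, Cdk8, a Mediator kinase, -1.37, and koko -1.12. The remaining genes were within 2-fold. Those of the transcriptional kinases had log2 changes of -0.87 (Cdk9), -0.84 (Cdk7), -0.82 (CycK), -0.81 (CycC), -0.72 (Cdk12) and -0.22 (CycT). CycJ, CycY, Cdk4 and Pitslre had -0.79, -0.33, -0.22 and -0.03. Positive values were found for CycG (0.14), for Cdk5 (0.12), a kinase known for its function in neurons, and for Eip63E (0.65).

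Among 19 further regulators of CDK activity, 9 were at least 2-fold lower and 2 at least 2-fold higher in neurons (median -0.94), beside 16.6% lower and 26.9% higher among all genes compared. Under TPM scaling 6 were lower, and with a pseudocount of 5 only 1 was higher. The small CDK-binding proteins of the Cks family stood at opposite ends. Cks30A had 106 FPKM in NSCs against 7.52 in neurons (-3.65), whereas Cks85A had 12.1 FPKM in NSCs against 29.2 in neurons (1.20). The ratio of Cks85A to Cks30A was 0.115 in NSCs and 3.88 in neurons. The phosphatase gene cdc14, whose relative drives mitotic exit in budding yeast, had 4.59 FPKM in NSCs against 44.6 in neurons (3.03). The gene plu, a subunit of the PAN GU kinase of the early embryo, had -2.55, trbl had -2.12, and png, another subunit of that kinase, had -0.26.

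In the group of E2F, Rb and dREAM genes, 5 of the 10 genes compared were 2-fold lower and 0 higher (median -1.04), compared with 16.6% and 26.9% of all genes. The median NSC level of this list was 51.9 FPKM. Among genes with at least 50 FPKM in NSCs, 34.5% were 2-fold lower and 4.95% were 2-fold higher. Under TPM scaling 3 genes of this list were lower and 1 was higher. The lowest was the second retinoblastoma gene, Rbf2, with 25.95 FPKM in NSCs and 4.05 in neurons (-2.42), while Rbf had -0.73. Dp, the dimer partner of E2F proteins, had -1.25 and the repressor E2f2 -0.56, both beside the -0.78 of E2f. The remaining complex subunits had -1.38 (Caf1), -1.37 (mip40), -1.20 (lin-52), -0.88 (mip130) and -0.84 (mip120), and tara had 0.76. The testis gene aly was below 1 FPKM in both libraries and was not compared.

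Among all genes compared, 16.6% were 2-fold lower and 26.9% were 2-fold higher. Of the 19 genes of the anaphase-promoting complex and of SCF ubiquitin ligases, 9 were 2-fold lower and 0 higher (median -0.995). After fzy the lowest were cort, an activator known from female meiosis (-1.70), and Rca1, an inhibitor of Fizzy-related (-1.56). The values nearest 0 were those of Cdc27 (-0.34), CG8188 (-0.54), a ubiquitin-conjugating enzyme gene, and slmb (-0.59). The count of this list depended on scaling, since 5 genes were 2-fold lower under TPM scaling and 3 with a pseudocount of 5. Of all genes compared, 11.8% were 2-fold lower under either setting.

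The lists of DNA replication and mitotic genes differed more uniformly, where 16.6% of all genes compared were 2-fold lower. Of 32 DNA replication genes, 31 were 2-fold lower in neurons (median -2.03), with Mcm5 of the replicative helicase (-2.61), DNA-ligI (-2.54) and mus209, which encodes PCNA (-2.53), the lowest. The GINS subunit gene Psf3 (-0.59), CDC45L (-1.28) and Gnf1 (-1.31) were the highest. Among genes with at least 50 FPKM in NSCs, 34.5% were 2-fold lower, and the mitotic list had a median of 116 FPKM there. Of 16 genes for mitotic kinases and cohesin release, 14 were 2-fold lower (median -2.50). Here the Aurora B gene ial (-3.07), the checkpoint gene BubR1 (-2.79) and the Survivin gene Det (-2.70) were the lowest, and Bub1 (-0.49), endos (-0.78) and Bub3 (-1.96) the highest. The log2 changes of CycA, CycB, CycB3 and cdc2, from -2.91 to -2.21, lay around the median of the mitotic list, whereas those of E2f and stg lay above all but 1 gene of the replication list.

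Of 8 other regulators linked to cell cycle arrest, 4 genes were 2-fold higher, 0 were 2-fold lower and 4 stayed within 2-fold (median 0.94), where 26.9% of all genes compared were 2-fold higher. The 4 higher genes were nerfin-1, a zinc finger gene of young neurons (1.39), ttk, a repressor (1.32), foxo (1.25) and Mnt, which antagonizes Myc (1.03). The Myc gene dm had -0.81, brat -0.21 and pros, a homeobox gene needed for cell cycle exit of ganglion mother cells, 0.05. In all 7 lists together, 72 of the 121 genes compared were 2-fold lower and 6 were 2-fold higher (median -1.28). Of all 10158 genes compared, 16.6% were 2-fold lower and 26.9% were 2-fold higher. The DNA replication and mitotic lists held 31 and 14 of the 72 lower genes, whereas the cyclin and CDK list held 4.

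**Figure D4:**
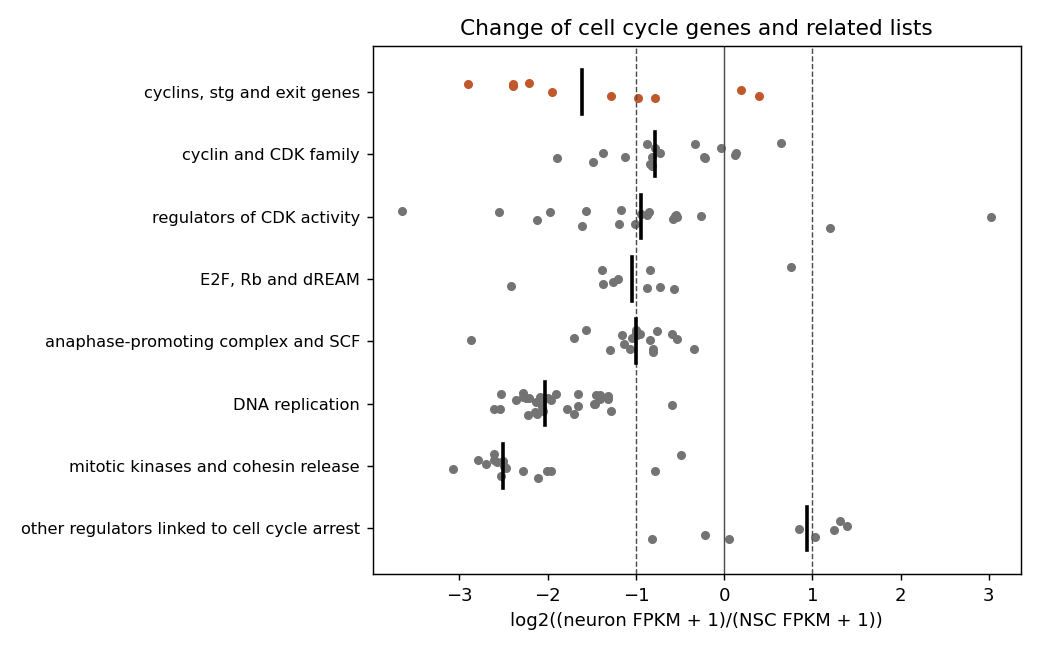
log2 change of each gene (points, spread vertically for visibility) for the 10 cell cycle genes and 7 related lists. Black bars mark medians, the solid line 0 and the dashed lines 2-fold. The replication and mitotic lists cluster at medians of -2.03 and -2.50, the 10 genes spread from -2.91 to 0.40, and the list linked to arrest has a median of 0.94.

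Gene length was then considered, since nuclear RNA holds unspliced transcripts and long genes tended to be higher in neurons. The ratios formed within a library did not remove this trend. E2f, CycE and fzr spanned 40568, 20570 and 12248 bp and belonged to the longest quintile of genes by span, in which the median log2 change was 0.82 and 5.08% of genes were 2-fold lower. CycE was thus 2-fold lower in a class where few genes were. E2f (-0.78) and fzr (0.40) also lay below the median of this class, although fzr had the higher value in neurons. The other 7 genes spanned 1524 to 6860 bp. The quintile that holds CycB, CycB3 and CycD had a median of 0.04 with 19.6% 2-fold lower, and the quintile with CycA, stg and dap had a median of 0.23 with 14.6%. Within the latter quintile, CycA had a log2 change of -2.21 and dap one of 0.19.

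Overlapping genes could share reads, because strandedness was not stated. CG7264 overlaps CycA on the other strand but had only 2.10 FPKM in NSCs against 4.82 in neurons. CycE and E2f overlap noncoding genes, and E2f also holds the microRNA genes mir-11 and mir-998. CycB, CycB3, cdc2, stg, CycD, dap and fzr overlapped no other annotated gene.

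From the steps of low FPKM values, the NSC library was estimated to hold about 65.5 M mapped fragments (M, 1000000) and the neuron library 69.5 M. Each of the 10 genes then rested on an estimated 2649 fragments or more, and the counting error of its log2 change was between 0.0092 and 0.031. This covers counting only, since the variation between preparations is unknown. For stg it was 0.012, beside a log2 change of -0.98. Fewer dividing cells among the captured nuclei and less RNA per nucleus cannot be told apart in such bulk samples.

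Markers of the labelled cell types and of others were measured beside these differences, against 16.6% of all genes 2-fold lower and 26.9% 2-fold higher. Summed over 10 NSC markers FPKM was 539 in NSCs and 221 in neurons, with 4 genes 2-fold lower and 6 within 2-fold, among them insc (0.53), vnd (0.41) and pros (0.05) with positive log2 changes. Without l(1)sc, which had 129.9 and 2.11 FPKM, the sums were 409 and 219. The driver gene sca had 64.0 and 4.72 FPKM. Over the 10 of 11 neuronal markers found, FPKM summed to 87.5 and 631, with 9 genes 2-fold higher. The neuronal marker within 2-fold was elav, the driver gene of the neuron library (46.5 and 77.0 FPKM, log2 change 0.72). Without fne, which had 10.3 and 276 FPKM, the neuronal sums were 77.2 and 355. Summed FPKM in NSCs and neurons was 801 and 3613 for 9 muscle markers, 119 and 804 for 8 hemocyte and fat body markers, 273 and 426 for 9 glial markers, 87.2 and 111 for 6 gut and salivary gland markers, 72.2 and 91.9 for 5 tracheal markers, 243 and 170.2 for 6 epidermal markers and 118 and 83.2 for 6 germline markers. Of these lists 6, 3, 3, 2, 2, 2 and 1 genes were 2-fold higher in neurons, and 2, 0, 0, 0, 1, 1 and 3 were 2-fold lower. The order of a sum turned around without its most different gene in 3 lists. Without Cpr47Eg the epidermal sums were 85.2 and 137, without pio the tracheal sums were 61.4 and 60.1, and without GATAe the gut and salivary gland sums were 77.5 and 69.8. Sgs3 was listed at 0 in the NSC library, and no other marker was at 0. The part of other cell types in the levels of the cell cycle genes was not tested.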

How the data were processed

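Nuclear RNA was sequenced from 1 NSC library and 1 neuron library. According to the study's methods, reads were aligned to FlyBase transcripts with TopHat 1.3.1, and uniquely mapped reads were passed to Cuffdiff 1.3.0. The deposited FPKM values were made by the authors, with a single value for each gene in each library. The number and length of reads, strandedness and gene filters were not given in the sources used here. The labels mention cross-linked embryos and the methods embryos without crosslinking, and the stated ages were used although the labelled collection and ageing times do not add up to them.

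The header line, repeated before every gene row, was removed (13623 genes). Groups came from the sample labels. A count model was not applied, since FPKM are not counts. Changes were computed with a pseudocount of 1, which understates the change of low genes, on the 10158 genes that reached 1 FPKM in either library, in Python 3.11.15 with pandas 2.3.3. The calculation was tested on simulated data, with known changes larger than 2-fold and counting noise only. Variation between preparations was not simulated, so the test does not bear on differences between single libraries. Alternatives were pseudocounts of 0.1 and 5, scaling to equal FPKM sums (TPM), to the median ratio and to upper quartiles, and 3 filters.

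Lengths, arms and identifiers came from Ensembl release 115 (BDGP6), another assembly than the authors' dm3, so no coordinates are given. Older symbols were matched through RefSeq synonyms. The symbols cdc2 and E2f each have another gene among their synonym holders (fzy and E2f2), which has its own row. Fragment numbers were estimated with exonic length less 200 bp.

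The genes and the lists were chosen with earlier results of these data known, and lists were written from general knowledge. A kinesin gene, neb, listed in error among CDK regulators, was removed after its value had been seen. The text names the 10 genes, each gene of the CDK and E2F lists, and of the other cell cycle lists the 3 highest and 3 lowest and any past 2-fold against the list median. Mnt was named beyond this rule, because it was also past 2-fold in the list linked to arrest. Marker lists are given as sums, and the markers named beside them were chosen after their values were seen. Partner genes named for ratios were chosen after their values were seen.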

Additional observations from a re-analysis of the deposited data

How the results depend on the processing

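The 6 genes that were 2-fold lower, the 0 that were 2-fold higher and the direction of each of the 10 genes were the same under the 5 pseudocount and scaling alternatives. TPM scaling raised the median of all genes compared by 0.25 (log2) and gave the highest value for each gene: -0.71 for stg, -1.02 for CycD, 0.45 for dap and 0.66 for fzr. The lowest value of stg was -0.99, with upper quartile scaling. The median of the 10 genes lay between -1.65 and -1.36. The 3 filters changed neither the counts nor the median of the 10 genes. Under TPM scaling, 74.2% of all changed genes were higher in neurons, compared with 61.9% as deposited. Over the 7 lists, between 62 and 77 genes were 2-fold lower and between 4 and 8 higher. Counts moved over 1.5 times for single lists only. With TPM scaling, 3 genes of the E2F, Rb and dREAM list were 2-fold lower and 1 higher, and 5 genes of the anaphase-promoting complex and SCF list were lower. With a pseudocount of 5, that number was 3, and 1 CDK regulator was 2-fold higher. With 1 library per group no replicate could be left out. No paired analysis was possible because each group had a single library.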
